A study of Arabidopsis thaliana with 24 samples.

Results

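The last time point of a flower-induction experiment in Arabidopsis thaliana was examined for transcripts that had lost their 5′ cap. The 4 arrays titled as day 5, one from each of 4 biologically independent tissue sets, were taken from a series of 24 arrays, and the 20 arrays of days 0 to 4 served for comparison. Plants carried 35S:AP1-GR, a fusion of the floral regulator AP1 with the hormone-binding part of the glucocorticoid receptor under a constitutive viral promoter, in the ap1 cal background, which lacks AP1 and its close relative CAL and piles up inflorescence-like meristems in place of flowers. All groups shared that genotype and the treatment, a solution of 1 µM dexamethasone with ethanol and the wetting agent Silwet L-77, which was applied to inflorescences at the start of bolting and lets the fusion protein act. On day 5 and on days 0, 1, 2, 3 and 4 after activation, tissue close to the inflorescence surface was pooled from about 25 plants per time point. On each array decapped mRNA, isolated from polyadenylated RNA by a modified RLM-RACE protocol, competed with total polyadenylated mRNA of the same tissue. On day 5 decapped mRNA carried Cy5 in sets 1 and 2 and Cy3 in sets 3 and 4, so a difference between those pairs of sets and a dye difference cannot be told apart within the day.

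The cap protects an mRNA from the main 5′ exonucleases. In plants, removal of the cap by the DCP2 complex, helped by VCS, PAT1, LSM1 and DEAD-box helicases, commits a transcript to decay from its 5′ end, while the exosome and the SKI complex degrade from the 3′ end, and microRNA-guided cleavage also leaves a 3′ piece without a cap. A high decapped over total ratio therefore means that a transcript made up a larger share of the decapped pool than of the total pool, and says nothing on its level. Each value below is the log ratio of the 2 channels, likely log2 and likely decapped over total, since the decapped sample is channel 1 on every array whatever its dye. Had the table been deposited the other way round, every "higher" would read "lower". Because the arrays compare 2 pools of the same tissue, levels of marker genes could not be used to check that the tissue was young flowers.

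Ratios were measured on day 5 for 11802 of 13745 genes. For the other 1943 genes the day held only 1 shared value of ±0.0268, present in 3596 probes (13.8% of all probes) with its sign set by the dye, and this was treated as missing. The tests covered 10607 genes with values on all 6 days. The medians of the 4 day 5 arrays over those genes were 0.08, -0.10, -0.03 and -0.17 in sets 1 to 4, and correlations across genes between the 4 arrays, which share their probes, ran from 0.70 to 0.81. No measure of spot brightness was available. The median 95% interval for a gene's day 5 mean, an average of 4 arrays, was ±0.72. This interval and the p-values of the main limma fit rest on the spread within all 6 days together, after a dye term. They do not measure the spread of the 4 day 5 arrays alone, which is given as the SD (n = 4) and can be larger. A long-oligonucleotide probe can also bind close relatives, so values of histone, tubulin, NGA, IAA and other paralogs are uncertain to that extent.

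The first question was which transcripts were over- or under-represented in the decapped pool of day 5 tissue. Among genes with a symbol, high day 5 ratios were measured for BZIP53, a transcription factor, POL, a protein phosphatase, and UBP21, a deubiquitinase, with means of 3.35, 2.58 and 2.33. Low ratios were measured for TUB7, a β-tubulin, ATARD2, an enzyme of methionine salvage, and HTB1, a histone H2B, with means of -4.22, -3.69 and -3.05. Ratios were higher than 0 in 1938 of 10607 genes (18.3%) and lower in 2204 (20.8%), together 39.0%, by limma with Benjamini-Hochberg adjustment at 0.05. Counted without a test, all 4 arrays lay above 0 for 2904 genes (27.4%) and below 0 for 3534 (33.3%). The low side reached further: 722 genes had a day 5 mean of -2 or less and 135 of -3 or less, while 128 genes had a mean of at least 2 and 7 of at least 3. The median gene stood at -0.03. Leaving out each day 5 array in turn kept the call of 1015 of the 1938 higher genes (52.4%) and 1243 of the 2204 lower genes (56.4%), and the smallest count of lower genes, 1428, came without set 2.

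The highest ratio of all belonged to AT2G01020, a gene annotated as an rRNA, whose 4 arrays read 8.09, 8.23, 2.29 and 3.28 in sets 1 to 4. The sets with decapped mRNA in Cy5 were well above those with Cy3, and over all 24 arrays the dye term of this gene was 4.19 (Cy5 minus Cy3, limma adjusted p = 0.00178). A dye effect was called in 74 genes (0.698%), 26 of them among the 4142 called on day 5. The mean of AT2G01020 was 5.47 ± 3.13 (SD, n = 4, limma adjusted p = 6.67e-05). For this rRNA the ratio gives only its share of the decapped pool against the total pool. Whether it reflects the loss of a cap was not tested. AT5G52790 followed among genes without a symbol, at 5.14, 3.22, 3.82 and 4.15 (mean 4.08), and AT1G63730 at 3.73, 1.08, 2.34 and 6.48 (mean 3.41). These genes were picked from called genes with all 4 day 5 arrays on 1 side of 0.

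IAA34, a member of the Aux/IAA family of auxin response repressors, had ratios of 5.14, 2.03, 3.94 and 8.69 in sets 1 to 4. It averaged 4.95 ± 2.81 (SD, n = 4) on day 5, the highest mean among genes with a symbol, against 2.82 ± 2.74 (SD, n = 20) on days 0 to 4. Its call depended on set 4, since the limma adjusted p was 0.00689 with all arrays and 0.0632 without that array, when the fitted value, the day 5 estimate after the dye term, was 3.85. BZIP53, a bZIP transcription factor linked to seed maturation and amino acid metabolism, read 3.09, 4.05, 1.90 and 4.35.

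POL, a protein phosphatase of the CLAVATA pathway that helps maintain stem cells of the shoot meristem, had 2.44, 2.29, 2.72 and 2.84. Those arrays lay close together, at 2.58 ± 0.25 (SD, n = 4, limma adjusted p = 3.2e-05), against 2.09 ± 0.74 (SD, n = 20) on days 0 to 4. PSY1R, a receptor kinase for a sulfated growth peptide, read 2.67, 2.60, 2.48 and 1.18, with set 4 apart from the others. The peptide signal gene RALFL27 split by set, with 0.92 and 0.88 in sets 1 and 2 but 3.15 and 3.60 in sets 3 and 4, and lost its call without set 4 (fitted value 1.71, limma adjusted p = 0.0534).

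Among enzymes, the subtilisin-like protease genes SBT3.5 and SBT1.3 stood at 2.54 ± 0.95 and 2.28 ± 1.41 (SD, n = 4 each) and the deubiquitinase gene UBP21 at 2.33 ± 0.22. The 4 measured CSLC genes, a group singled out after their values were seen, encode cellulose synthase-like proteins that build the xyloglucan backbone. All 4 were called higher, beside 18.3% over all tested genes. Their gene spans in the annotation were 3395 to 3557 bp. In the classes of tested genes with median spans of 2854 and 4190 bp, 23.5% and 33.3% were called higher. CSLC5 had 2.06, 2.12, 2.30 and 2.42 in sets 1 to 4 and CSLC6 had 1.97, 2.01, 2.00 and 2.77. CSLC12 averaged 1.34 ± 0.44 and CSLC04 0.83 ± 0.45 (SD, n = 4 each). The call of CSLC04 was lost without set 1, 2 or 3, with fitted values of 0.64 to 0.92 and limma adjusted p-values of 0.0547 to 0.17. RXW8 (2.18) and CTF2A (2.12) completed the 12 highest genes with a symbol.

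**Figure D1:**
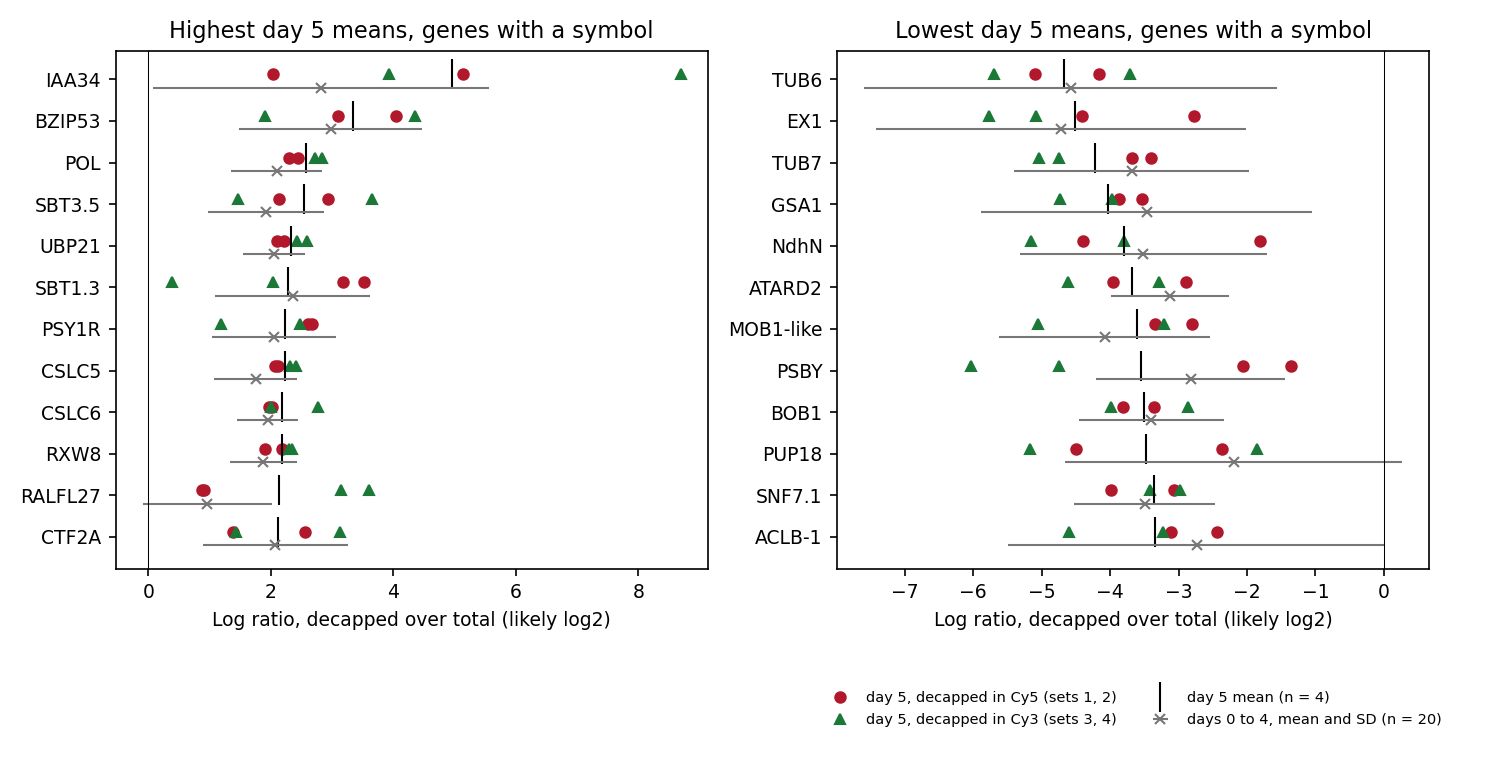
Log ratio, decapped over total, of the 12 highest (left) and 12 lowest (right) day 5 means among called genes with a symbol that lay on 1 side of 0 on all 4 day 5 arrays. Circles (decapped in Cy5, sets 1 and 2) and triangles (decapped in Cy3, sets 3 and 4) are single day 5 arrays, black bars their mean (n = 4), and grey crosses with lines the mean and SD of the 20 arrays of days 0 to 4. The day 5 means of POL (2.58) and UBP21 (2.33) rest on arrays that lie close together, while IAA34 spreads from 2.03 to 8.69.

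At the low end, 2 genes for β-tubulin, the building block of microtubules, were among the 3 lowest with a symbol. TUB6 had -4.17, -5.10, -3.71 and -5.70 in sets 1 to 4, and TUB7 had -3.40, -3.68, -5.04 and -4.75. TUB7 averaged -4.22 ± 0.80 (SD, n = 4) on day 5 against -3.69 ± 1.71 (SD, n = 20) on days 0 to 4. TUB6 lost its call without set 4 (fitted value -4.35, limma adjusted p = 0.0516). The 8 measured tubulin genes were a group also chosen after their values were seen. Of these, TUB6, TUB7, TUB9 (-3.16 ± 0.75) and TUA1 (-1.69 ± 0.53) were lower and TUB5 (0.72 ± 0.41) was higher. TUA2, TUA3 and TUA6 were not called. Over all tested genes 20.8% were lower and 18.3% higher. The call of TUA1 was lost without set 1, 3 or 4 (fitted values -1.54 to -1.69, limma adjusted p = 0.0706 to 0.0984) and that of TUB5 without set 2 (fitted value 0.55, limma adjusted p = 0.0895). TUA6 lay at 1.53 and 2.72 in sets 1 and 2 and at -1.78 and -0.43 in sets 3 and 4.

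The 12 lowest genes with a symbol included EX1, GSA1, NdhN and PSBY, which encode chloroplast proteins. The share of such genes among all tested genes was not determined. EX1, which acts in singlet oxygen signalling, read -2.77, -4.41, -5.78 and -5.08, and GSA1, an enzyme of chlorophyll precursor synthesis, read -3.53, -3.87, -4.74 and -3.97. NdhN, a subunit of the chloroplast NDH complex, averaged -3.79 ± 1.43 and PSBY, a photosystem II protein, -3.55 ± 2.20 (SD, n = 4 each). PSBY split by set, at -1.36 and -2.05 in sets 1 and 2 against -4.74 and -6.03 in sets 3 and 4. The remaining low genes were ATARD2 of methionine salvage (-3.69 ± 0.76), the kinase activator gene MOB1-like (-3.60 ± 1.00), BOB1, a small chaperone (-3.50 ± 0.50), the ESCRT-III gene SNF7.1 (-3.36 ± 0.46), PUP18, a purine permease-like gene (-3.47 ± 1.61) and ACLB-1, a subunit of ATP-citrate lyase (-3.35 ± 0.91). PUP18 lost its call without set 2 (fitted value -3.20, limma adjusted p = 0.0899) or set 4 (fitted value -2.78, limma adjusted p = 0.132). ACLB-1 lost its call without any 1 of the 4 day 5 arrays (fitted values -3.02 to -3.54, limma adjusted p = 0.0847 to 0.138). The lowest genes of all had no symbol: AT1G02890 (-3.55, -6.52, -4.79 and -7.10), AT5G02160 (-3.99, -5.55, -5.96 and -5.94) and AT3G26700 (-4.46, -3.45, -5.17 and -6.61).

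The mRNA decay machinery itself was represented by 11 tested genes of a list of 32. Of these, 5 were higher and 2 lower than 0 on day 5, beside 18.3% higher and 20.8% lower over all tested genes, with a list median of 1.01 against -0.03 over all tested genes. The 5 higher genes act in decapping, in nonsense-mediated decay or beside the exosome, and the 2 lower genes encode exosome subunits. SKI2 (AT3G46960), the helicase that feeds RNA to the exosome, had 1.61, 2.03, 2.78 and 1.74 in sets 1 to 4, at 2.04 ± 0.52 (SD, n = 4, limma adjusted p = 0.00471). Its call was lost without all arrays of set 3 (limma adjusted p = 0.0612). The DEAD-box helicase genes RH6 (AT2G45810) and RH12 (AT3G61240), whose products occur in decapping bodies, read 1.92, 1.52, 1.22 and 2.34, and 1.76, 1.50, 0.99 and 2.56.

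PAT1 (AT1G79090), an activator of decapping, had 0.40 in set 1 and 1.34, 1.19 and 1.29 in sets 2 to 4. It sat at the edge of the call, with a limma adjusted p of 0.0497, and lost it without any 1 of the 4 day 5 arrays (fitted values 0.95 to 1.28, limma adjusted p = 0.0549 to 0.157). UPF2 (AT2G39260), a core factor of nonsense-mediated decay, averaged 1.01 ± 0.43 (SD, n = 4) and lost its call without set 1 (fitted value 0.77, limma adjusted p = 0.101) or set 2 (fitted value 0.95, limma adjusted p = 0.0564). VCS, the scaffold of the decapping complex, had 0.11, 1.34, 2.09 and 1.40, was not called with all arrays (mean 1.24, limma adjusted p = 0.0518) and was called without set 1 (fitted value 1.69, limma adjusted p = 0.0289).

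The exosome core gene RRP41 read -2.27, -2.14, -1.96 and -1.21 in sets 1 to 4, all below 0. CSL4 (AT5G38890), an exosome cap subunit, read -1.79, -2.62, -1.64 and -1.67 and lost its call without set 2 (fitted value -1.69, limma adjusted p = 0.0644). LSM1B (-0.01), CCR4A (AT3G58560, -0.22) and CCR4B (AT3G58580, -0.73), which act in decapping and deadenylation, were not called. Day 5 minus days 0 to 4 ran from -0.21 for LSM1B to 0.71 for VCS over the 11 genes, without a call.

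**Figure D2:**
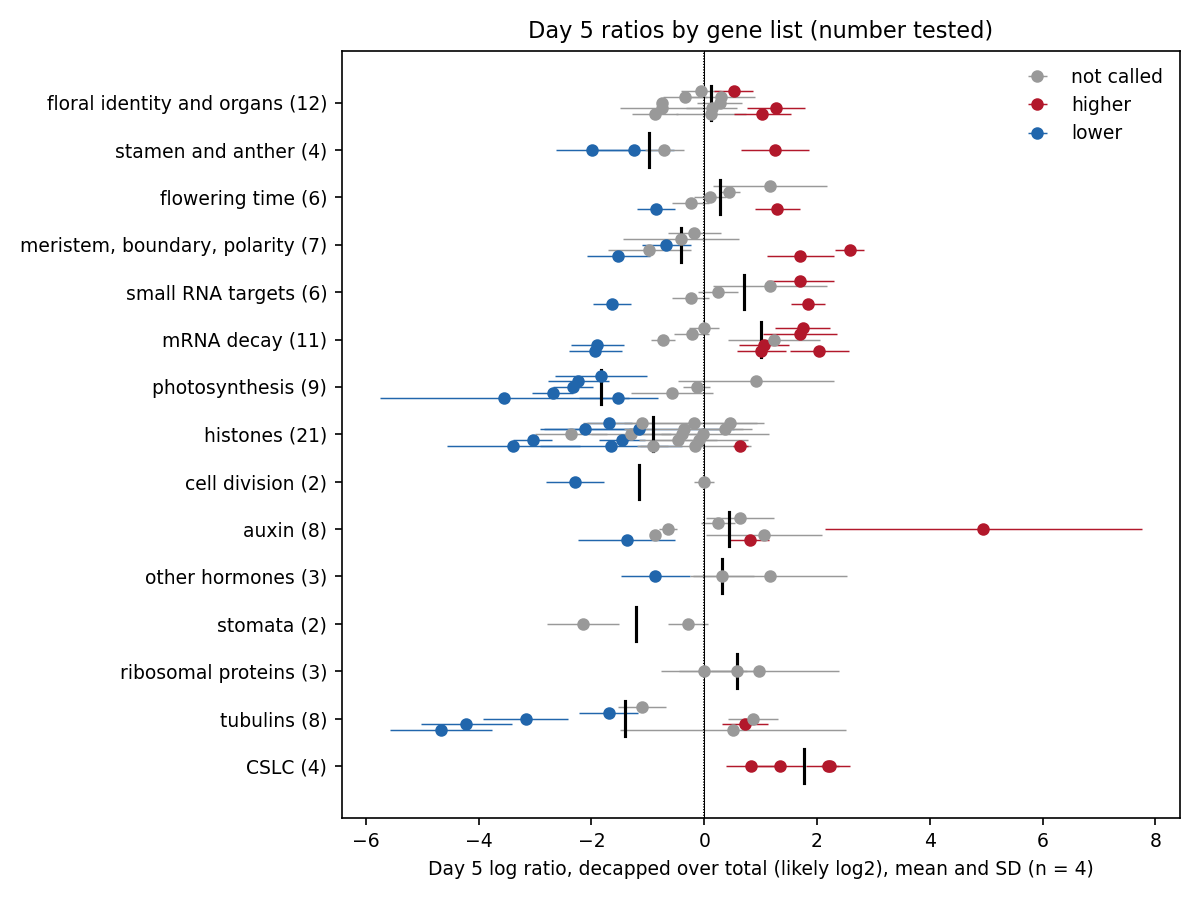
Day 5 mean log ratio, decapped over total, with SD (n = 4) of each tested gene, by list, coloured by the limma call, with the list median as a black bar. The stress and proteasome lists, with 1 gene each, are not drawn. The mRNA decay list has its median at 1.01 and the photosynthesis list at -1.83, and the floral list is centred near 0 (0.13) with 3 genes called higher.

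Regulators of flower and organ formation lay on both sides of 0. The floral identity and organ list had 12 tested genes, of which 3 passed as higher and 9 were not called. Its median was 0.13. Over all tested genes 18.3% were higher and 20.8% lower, and the counts of the lists that follow are to be read beside those shares. UFO, an F-box cofactor of LEAFY that acts in petal and stamen identity, had 1.54, 1.52, 1.54 and 0.50 in sets 1 to 4. It averaged 1.28 ± 0.52 (SD, n = 4, limma adjusted p = 5.75e-05) on day 5 against 0.96 ± 0.22 (SD, n = 20) on days 0 to 4, with set 4 apart. SPT, a carpel margin regulator, read 0.51, 0.74, 1.28 and 1.61.

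NGA1, a gene for style development, read 0.78, 0.72, 0.55 and 0.03 and lost its call without set 1, 2 or 3 (fitted values 0.45 to 0.50, limma adjusted p = 0.113 to 0.153). Its relatives NGA2 (0.27), NGA3 (-0.87) and NGA4 (-0.75) were not called. The other tested genes of the floral identity and organ list, JAG (0.13), PTL (0.12), RBE (-0.06), KNU (-0.34), SEU (0.29) and BPEp (-0.75), were not called. KNU, PTL, RBE and JAG each had day 5 arrays on both sides of 0.

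Of 4 tested genes of the stamen and anther, 1 was higher and 2 were lower, and the call of ROXY1 was kept whichever day 5 array was left out. ROXY1 and ROXY2 encode glutaredoxins required together for anther lobes. ROXY1 read -2.03, -2.48, -2.37 and -1.06 on day 5, with a mean of -1.99 ± 0.64 (SD, n = 4, limma adjusted p = 5.75e-05) against -2.36 ± 0.55 (SD, n = 20) on days 0 to 4. ROXY2 read -0.51, -0.77, -1.96 and -1.77, and its call was lost without set 3 (fitted value -1.04, limma adjusted p = 0.0633). EMS1, a receptor kinase that specifies the tapetum, read 0.63, 2.07, 1.24 and 1.10 and lost its call without set 2 (fitted value 0.93, limma adjusted p = 0.123). SPL, which starts sporogenous tissue, was not called at -0.71 ± 0.34. The list median was -0.98 over 4 tested genes.

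Of 6 flowering time genes, GI, a clock and photoperiod regulator, was higher at 0.98, 1.29, 1.85 and 1.05 (mean 1.29 ± 0.40, SD, n = 4). AGL24, a MADS-box gene that AP1 represses, was lower at -1.31, -0.78, -0.85 and -0.47, and lost its call without set 1 (fitted value -0.68, limma adjusted p = 0.0878). FD, SMZ, SNZ and AGL42 were not called. SMZ, an AP2-like repressor of flowering, was high in set 1 (2.62) and between 0.36 and 1.04 in the other sets.

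Among 7 meristem, boundary and polarity genes, POL and PHV were higher, LOB and YAB3 were lower, and CLV3, LAS and INO were not called. PHV, an HD-ZIP III gene for the upper side of lateral organs, had 1.02, 1.52, 2.43 and 1.84, or 1.70 ± 0.59 (SD, n = 4) on day 5 against 1.02 ± 0.89 (SD, n = 20) on days 0 to 4. LOB, expressed at organ boundaries, had -1.04, -2.14, -1.84 and -1.07. YAB3, a gene for the lower side of organs, averaged -0.67 ± 0.43 and lost its call without any 1 of the 4 day 5 arrays (fitted values -0.50 to -0.77, limma adjusted p = 0.0615 to 0.218). CLV3, the stem cell peptide gene, stayed near 0 at -0.18 ± 0.47.

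Targets of small RNAs, whose cleavage can feed the decapped pool, did not share 1 direction among the 6 tested genes. PHV, a microRNA target among the HD-ZIP III genes, and APS3, an ATP sulfurylase gene of the sulfur starvation response, were higher. APS3 read 1.67, 1.70, 2.29 and 1.68, or 1.83 ± 0.30 (SD, n = 4) on day 5 against 1.87 ± 0.51 (SD, n = 20) on days 0 to 4. APS4, another ATP sulfurylase gene of the list, was lower at -1.64, -1.31, -2.11 and -1.50, and lost its call without any 1 of the 4 day 5 arrays (fitted values -1.55 to -1.77, limma adjusted p = 0.0524 to 0.0884). AGL16 (0.24), SMZ (1.16) and SNZ (-0.24) were not called, and the list median was 0.70.

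Of 9 tested genes of photosynthesis, which also mark green tissue, 6 passed as lower (20.8% over all tested genes) and 3 were not called. The list median was -1.83 on day 5 against -1.80 on days 0 to 4. LHCB4.2, a light-harvesting protein of photosystem II, read -2.69, -2.21, -2.76 and -3.11, and its mean of -2.69 ± 0.37 (SD, n = 4) stood beside -2.71 ± 0.57 (SD, n = 20) on days 0 to 4. LHCB4.3 (-2.23 ± 0.54) and LHCB4.1 (-1.52 ± 0.70) were lower as well, although LHCB4.1 lost its call with the first probe of the gene (limma adjusted p = 0.0745) and without all arrays of set 4 (limma adjusted p = 0.144). Lower ratios were also called for the photosystem genes PSAN (-2.33 ± 0.35), PSBW (-1.83 ± 0.82) and PSBY. PSBW lost its call without set 4 (fitted value -1.50, limma adjusted p = 0.0651). LHB1B2, another light-harvesting gene, differed from these at 2.54, 1.54, -0.49 and 0.08 and was not called, nor were PSAE-1 (-0.58) and RCA (-0.14), the activator of Rubisco.

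Histones package DNA and are made mostly in dividing cells. Of 21 tested histone genes, 7 were lower and 1 was higher on day 5, beside 20.8% lower and 18.3% higher over all tested genes, and the median was -0.92. The lowest were AT4G40040, a histone H3 gene, at -2.33, -2.58, -3.76 and -4.89, and HTB1, a histone H2B gene, at -2.67, -2.99, -3.49 and -3.04. HTB1 averaged -3.05 ± 0.34 (SD, n = 4, limma adjusted p = 4.72e-07) on day 5 against -2.93 ± 0.61 (SD, n = 20) on days 0 to 4. The histone H4 genes did not move together: HIS4 (-2.11 ± 0.79), AT3G53730 (-1.65 ± 1.27) and AT3G46320 (-1.16 ± 1.69) were lower, AT5G59690 (0.64 ± 0.13) was higher and AT1G07820 (-0.37 ± 1.05) was not called.

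Several of these calls were lost when 1 day 5 array was left out. AT3G46320 lay at -0.08 and 0.62 in sets 1 and 2 and at -2.89 and -2.28 in sets 3 and 4, and lost its call without set 1, 3 or 4 (fitted values -0.98 to -1.20, limma adjusted p = 0.0674 to 0.128). AT5G59690 lost its call without any 1 of the 4 day 5 arrays (fitted values 0.59 to 0.68, limma adjusted p = 0.0669 to 0.114). The histone H3 gene AT5G10400 (-1.68 ± 0.40) lost its call without set 1 (fitted value -1.53, limma adjusted p = 0.062) or set 2 (fitted value -1.63, limma adjusted p = 0.0503), and the histone H2B gene AT2G28720 (-1.46 ± 0.41) without set 2 (fitted value -1.31, limma adjusted p = 0.0664) or set 3 (fitted value -1.42, limma adjusted p = 0.0508). AUR1, a mitotic Aurora kinase, was lower at -2.24, -2.67, -2.68 and -1.58, while PRL, an MCM7 subunit of the replication helicase, stood at -0.01 ± 0.18.

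Among 8 auxin genes, IAA34 and IAA15 were higher and IAA31 was lower. IAA15 read 0.82, 1.28, 0.67 and 0.44 and lost its call without set 1, 2 or 3 (fitted values 0.66 to 0.82, limma adjusted p = 0.0623 to 0.124). IAA31 read -1.48, -1.29, -0.32 and -2.43 and lost its call without set 4 (fitted value -1.06, limma adjusted p = 0.0876). IAA29, at 1.07, -0.38, 1.60 and 1.95, was not called with all arrays and was called without set 2 (fitted value 1.53, limma adjusted p = 0.0241). IAA18, IAA30, IAA33 and YUC4, an auxin synthesis gene, were not called.

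Of the other hormone genes, SLY1, the F-box protein of gibberellin signalling, was lower at -1.07, -1.50, -0.06 and -0.83, and lost its call without set 2 (fitted value -0.69, limma adjusted p = 0.0669). SPY (0.31) and ARR15 (1.17) were not called. The zinc-finger stress gene STZ (1.55), the stomatal genes SPCH (-2.15) and MUTE (-0.29), and 3 ribosomal protein genes between -0.00 and 0.98 were not called either. RPN12a, a proteasome subunit, was lower at -1.52, -1.45, -0.62 and -2.15, and lost its call without set 4 (fitted value -1.17, limma adjusted p = 0.058). Genes of the vascular, root and cell wall lists were not analysed here.

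Gene families, taken as symbols with the same letters and at least 5 tested genes, numbered 36 with 377 genes, to be read beside 18.3% higher and 20.8% lower over all tested genes. High medians were seen for GLR glutamate receptor-like channels (1.34, with 4 of 7 higher), SBT subtilisin-like proteases (1.13, with 3 of 5 higher and 1 lower), UBP ubiquitin-specific proteases (1.01, with 6 of 12 higher) and TRM proteins, which recruit the TON1 complex to microtubules (0.89, with 8 of 13 higher and 1 lower). TRM19 read 1.33, 2.50, 1.57 and 2.60, and GLR3.6 read 1.91, 1.77, 1.80 and 0.99. Of the IQD genes for calmodulin-binding proteins, 5 were higher and 3 lower of 12, from IQD18 (1.75 ± 0.22) to IQD25 (-1.70 ± 0.36).

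Low medians were seen for CML calmodulin-like genes (-2.20, with 3 of 7 lower), NRPB subunits of RNA polymerase II (-1.56, with 5 of 6 lower), MED Mediator subunits (-1.35, with 4 of 6 lower) and EXPA expansins of the cell wall (-1.10, with 4 of 9 lower and 1 higher). The higher expansin gene, EXPA25, lost its call without set 1, 3 or 4 (fitted values 0.41 to 0.61, limma adjusted p = 0.116 to 0.274). CML43 read -4.10, -3.95, -2.87 and -2.38, and NRPB6A averaged -2.34 ± 0.47 (SD, n = 4). VPS24.1, an ESCRT-III gene like SNF7.1, averaged -3.18 ± 0.56 (SD, n = 4), while VPS22 of ESCRT-II was higher at 0.83 ± 0.35.

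The second question was which ratios differed on day 5 from the 20 arrays of days 0 to 4. No gene passed the test of day 5 minus the mean of the 5 earlier day means (0 of 10607, 0.0%, limma, smallest adjusted p = 1.00), and 170 genes had an unadjusted p under 0.05, of which 154 were higher (1.45%) and 16 lower (0.151%) on day 5. A threshold of 0.05 flags a share of about 0.05 when no gene differs and p-values are well calibrated, and the main fit flagged fewer. The test may thus be conservative, and the lack of calls does not show that day 5 equalled the earlier days. Those numbers moved with the processing, to 91 higher and 27 lower with arrays centred and 68 and 25 with arrays centred and scaled. They were 274 and 28 with set as a fixed block and 757 and 44 with array weights. For 0 genes did all 4 day 5 arrays lie above, or all below, all 20 earlier arrays (0.0% each). The median 95% interval of a gene's difference, before adjustment, was ±0.79. Across genes the day 5 mean and the mean of days 0 to 4 correlated at 0.954 (Pearson, 10607 genes, which share probes and sets), and by day at 0.914, 0.941, 0.917, 0.886 and 0.928 for days 0 to 4. Of the 1938 genes higher on day 5, 1930 had an earlier mean above 0, and of the 2204 lower genes 2199 had one below 0.

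**Figure D3:**
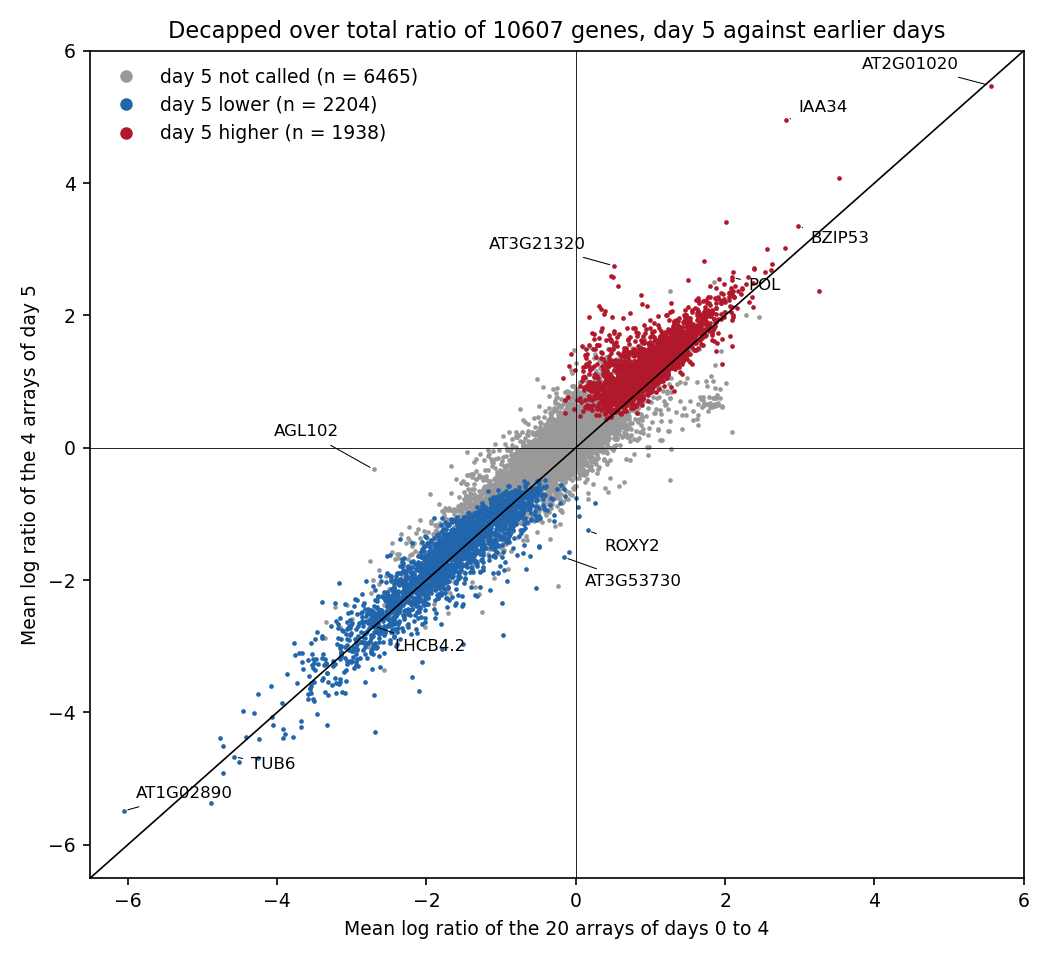
Mean log ratio of the 4 day 5 arrays against the mean of the 20 arrays of days 0 to 4 for 10607 genes, with genes called higher (red) or lower (blue) on day 5 and the line of equal values. Nearly all called genes lie on the same side of 0 on both axes; ROXY2 and AT3G53730 lie below the line, and AGL102 and AT3G21320 above it.

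Day 5 ratios were slightly higher as a whole, with a day 5 mean above the earlier mean in 7658 genes (72.2%) and a median difference of 0.16. The medians of the day means over genes were -0.24, -0.12, -0.17, -0.23, -0.21 and -0.03 on days 0 to 5. After each array was centred on its median the median difference was 0.06. Relative to the median gene of the values as deposited, a difference given below reads 0.16 lower.

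The genes below had the smallest unadjusted p-values of the difference, and each had a limma adjusted p of 1.00. The histone H4 gene AT3G53730 had the smallest of all (0.000499). Its day 5 arrays read -1.01, -2.88, -0.20 and -2.53, against earlier arrays from -1.51 to 0.42 with a median of -0.07, so sets 2 and 4 lay below every earlier array and sets 1 and 3 did not. The difference was -1.49 ± 0.36 (SE). ROXY2 stood at -1.25 ± 0.72 (SD, n = 4) on day 5 against 0.16 ± 0.77 (SD, n = 20) on days 0 to 4, a difference of -1.41 ± 0.39 (SE), with day means of -0.30, 0.17, -0.33, 0.53 and 0.72 on days 0 to 4. Its 4 day 5 arrays were all below 0, and 2 of them were also below the lowest earlier array (-1.05). The cellulose synthase-like gene CSLB03 averaged -0.76 ± 0.59 on day 5 against 0.00 ± 0.57 on days 0 to 4.

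On the other side, AT1G27220 had 1.45, 1.14, 1.86 and 2.04 on day 5 against earlier arrays from -0.80 to 1.33, a difference of 1.22 ± 0.30 (SE, unadjusted p = 0.000643). AT1G46696 had 1.42, 0.46, 2.19 and 1.56 against -0.92 to 1.24, a difference of 1.28 ± 0.32 (SE). Both had 3 day 5 arrays above every earlier one. AT3G21320 had 2.57, -0.43, 3.79 and 5.07 against -0.97 to 2.14, a difference of 2.24 ± 0.60 (SE). Without day 5 set 2 this difference was 3.23 with a limma adjusted p of 0.0149, and 6 genes then passed as higher.

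Among genes with a symbol the smallest p-values for a higher ratio belonged to UGT72B3, a glycosyltransferase gene (3.38, 0.11, 0.82 and 2.54 on day 5, against a mean of 0.24 on days 0 to 4), and PDF1.3, a plant defensin gene. PDF1.3 had 0.24, -0.03, -0.39 and -0.52 on day 5, and its day means on days 0 to 4 were -1.82, -1.14, -0.92, -0.32 and -1.18. Its day 5 mean was not told apart from 0 (limma adjusted p = 0.624) and its earlier arrays ran from -2.42 to -0.08. RXF26, MMP, a metalloproteinase gene, and scpl47, a serine carboxypeptidase-like gene, differed by 0.80, 0.86 and 1.10, each with an unadjusted p under 0.05 and a limma adjusted p of 1.00.

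**Figure D4:**
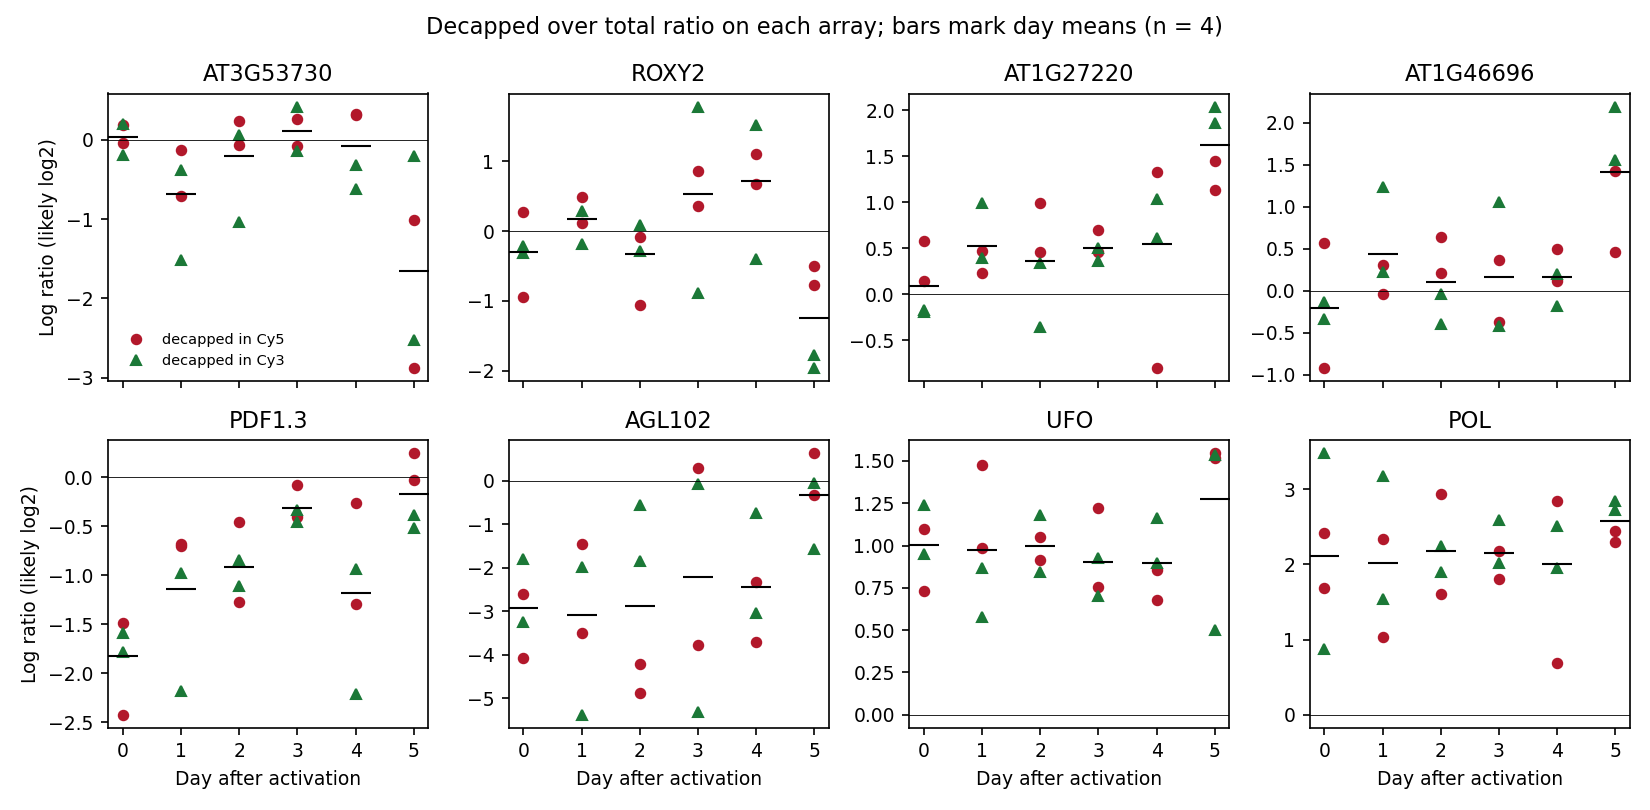
Decapped over total log ratio of 8 genes on each of the 24 arrays by day after activation, with circles for decapped mRNA in Cy5, triangles for Cy3 and bars for day means (n = 4). AT3G53730 and ROXY2 have their lowest day mean on day 5 (-1.65 and -1.25), AT1G27220 and AT1G46696 their highest (1.62 and 1.41), and UFO and POL are positive on every array.

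The order of genes by ratio was much the same on day 5 as before. The percentile rank of a gene's day 5 mean differed from its rank on days 0 to 4 by a median of 4.32 points, and by more than 19.5 points for 1 gene in 20. Of the 1061 genes with the highest day 5 means (1.21 or more), 794 (74.8%) were among the 1061 highest on days 0 to 4, and of the 1061 lowest (-1.68 or less) 897 (84.5%) were among the lowest. These lists are of equal size, so each percentage is a share of either list. Of the 1061 highest genes 0 lay below the median of days 0 to 4, and of the 1061 lowest 0 lay above it.

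The largest gain in rank among genes with a symbol was that of the MADS-box gene AGL102, at percentile 39.2 on day 5 and 2.2 on days 0 to 4. Its day 5 arrays read -0.33, 0.63, -0.04 and -1.58, against 20 earlier arrays with a lowest value of -5.38, a median of -2.82 and a highest of 0.29, so the groups overlapped. OSM34, an osmotin-like gene, stood at percentile 89.3 on day 5 and 55.6 before. The largest loss was that of ROXY2, at percentile 16.8 on day 5 and 65.3 before, followed by NdhS (29.6 and 76.6) and HTB2 (44.1 and 77.5), whose day 5 arrays lay within the range of the earlier ones. CYP71B29, PRA1.G2 and RR18 also stood higher in rank on day 5, and CSLB03 and AtVEX1 lower. These ranks were described and not tested.

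Properties of the genes that the comparison did not use varied with the ratio. By gene span in the annotation (exons and introns), the share of genes called higher on day 5 was 8.56% in the shortest of 5 classes (median span 1011 bp), then 11.3%, 14.7%, 23.5% and 33.3% in the longest (4190 bp). The share called lower was 23.0%, 29.6%, 26.6%, 17.5% and 7.23%. The medians of the day 5 ratio were -0.11, -0.30, -0.20, 0.06 and 0.37 in the same order, and the medians on days 0 to 4 were -0.23, -0.38, -0.36, -0.13 and 0.13. Both pools were amplified from a poly(A) primer, per the labels' protocols, and its part in this was not tested. Pseudogenes had a median of 0.31 on day 5 and 0.08 on days 0 to 4, and protein-coding genes one of -0.03 and -0.20. Of 113 pseudogenes 16 (14.2%) passed as higher and 4 (3.54%) as lower. Of 10476 protein-coding genes 1919 (18.3%) passed as higher and 2200 (21.0%) as lower. Pseudogenes thus had smaller shares of calls in both directions, despite their higher median.

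**Figure D5:**
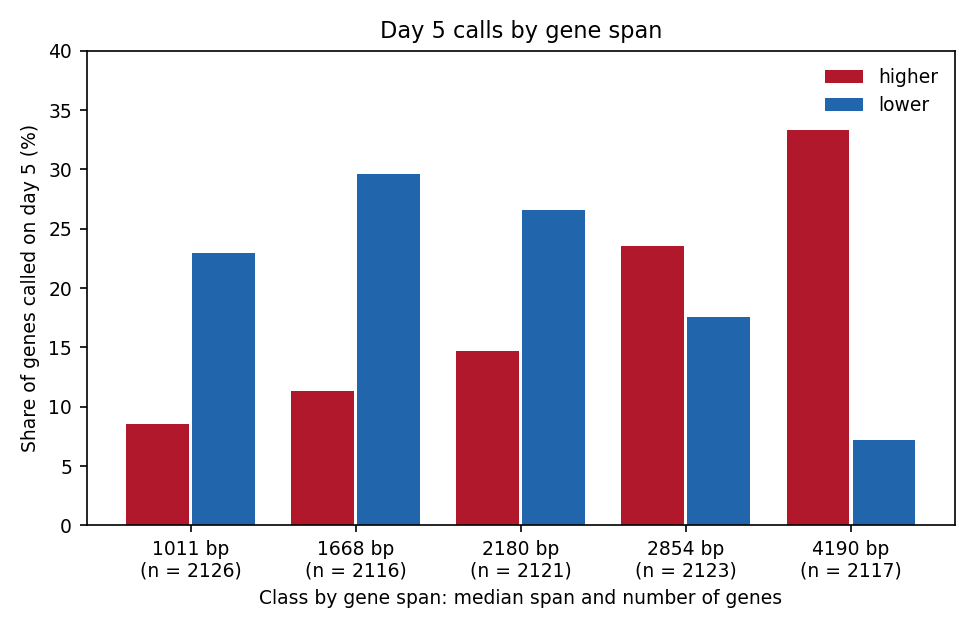
Share of tested genes called higher (red) or lower (blue) on day 5, in 5 classes of gene span labelled with the median span and the number of genes. The share called higher runs from 8.56% in the shortest class to 33.3% in the longest, and the share called lower from 29.6% in the second class to 7.23% in the longest.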

How the data were processed

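The deposited table holds 26102 probes on 24 two-colour arrays as log2 ratios (likely base; values -10.53 to 10.07) that the authors had already processed. How the background was removed and the arrays normalized or centred: not given in the sources used here. All 24 columns were used and 0 left out. Of the probes, 13960 were paired with 1 gene and 12142 stayed unnamed; 13912 matched RefSeq TAIR10.1 and 48 did not. Probes of a gene were averaged, and at least 2 values per day were required. On each day the most common set of 4 values was taken as missing, which left 10607 genes.

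limma 3.58.1 (lmFit, eBayes; R 4.3.3) was fitted to all 24 arrays with 6 day means and a dye term. Day 5 was tested against 0 and against the mean of the 5 earlier day means, two-sided, with Benjamini-Hochberg adjustment over all genes at 0.05. The code was tested on simulated data. Python 3.11.15 with numpy 2.4.6 and pandas 2.3.3 handled the tables.

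Genes were named by rule: the tested members of fixed lists; the 12 highest and 12 lowest called genes with a symbol and 3 each without; the 10 smallest p-values of the difference each way, and 5 with a symbol; the 5 largest rank changes each way; and the highest and lowest of each family. The members and lists were chosen with earlier results of these data known. Settings for the scale, missing values, dye, blocks, weights, probes and left-out arrays were varied. The values of 2 gene families are not reported here.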

Additional observations from a re-analysis of the deposited data

Results flagged for a closer look

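Among 232 genes checked, 16 had 1 of 4 day 5 arrays far from the other 3 by Dixon's criterion (6.90%), where chance flags about 1 in 20. In set 4, PSY1R was low at 1.18, UFO at 0.50, GLR3.6 at 0.99, BGLU16 at 0.49, PSAN at -2.85 and TBL39 at -2.05, while CSLC6 was high at 2.77, AT5G35430 at 2.61 and RR18 at 2.52. In set 3, NGA3 was high at -0.27 and APS3 at 2.29, and CHX16 was low at -0.11. In set 2, CSL4 (AT5G38890) was low at -2.62 and STZ at 0.56. In set 1, INO was low at -1.93 and PAT1 (AT1G79090) at 0.40.

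For 6 genes, all 4 day 5 arrays lay on 1 side of 0 and all 4 arrays of an earlier day on the other; these differences were not tested as single pairs of days. The day 5 mean minus that of the earlier day was 1.59 (day 0) and 1.02 (day 4) for PRA1.G2, 0.86 (day 4) for RR18, 0.85 (day 4) for AT1G26390, 0.55 (day 4) for ACT12 and 1.44 (day 3) for AT2G22270. It was -0.43 (day 0) and -0.56 (day 2) for Y14, a subunit of the exon junction complex. PRA1.G2 is a prenylated Rab acceptor gene and RR18 a cytokinin response regulator.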

How the results depend on the processing

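The limits are the 4 arrays of day 5, the unknown brightness of spots and the likely but unstated scale and direction. Probes of 1 gene also disagreed: of 171 genes with more than 1 measured probe on day 5, 102 had probes on both sides of 0. Only 203 of the 10607 tested genes had more than 1 probe, so the ratio of most genes rests on 1 probe. Leaving out each day 5 array in turn gave 1300 to 1542 higher and 1428 to 1657 lower genes against 0, and 0 to 6 higher and 0 lower genes for the difference from days 0 to 4. Alternatives that left out all 6 arrays of a set were added after seeing the data: without set 3 or 4 the higher genes numbered 1142 and 1168, and without set 2, 3 or 4 the lower genes numbered 1400, 1428 and 1229. Other alternatives gave 1394 higher genes (arrays centred and scaled) to 2850 (array weights) and 2045 to 3221 lower genes under the same settings. For the difference, 3 genes passed as higher without all arrays of set 2. Of the 6 that passed without day 5 set 2, AT3G21320 and AT1G10455 were among those named by rule, and AT1G09040, AT1G21326, AT1G65210 and AT4G28650 are named after their values were seen; their adjusted p-values ran from 0.0143 to 0.0431 (limma).

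Set numbers recur on every day, but the labels do not say that a number marks a shared batch. In the pairing check most same-set pairs of arrays correlated, though not all. In deviations from the day means, 43 of 60 same-set pairs of arrays correlated above 0.1 (median 0.23, other pairs -0.07). Day 5 arrays correlated best with their own set in 16 of 20 comparisons. Deviations within a day sum to 0, so the value of the other pairs is not independent of that of the same-set pairs. The dye effect was not removed, and same-set arrays of days 1, 3 and 5 share a dye orientation. With set as a fixed replicate block 2194 genes were higher and 2564 lower. As a random block, with an estimated correlation within sets of 0.165, the counts were 1988 and 2269. The difference had 0 calls with either block. With days 1 and 3 alone and the replicate block, an alternative added after seeing the data, 1 gene passed (AT5G53637, difference 1.49, limma adjusted p = 0.0475).

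Of 208 genes named for their day 5 ratio, 127 were called. Of these 60 kept the call under all 20 alternatives, 67 lost it at least once, and 0 changed sign. Some called genes kept the call whichever day 5 array was left out but lost it under another alternative. Among them were EX1, GSA1, CTF2A, SBT1.3, PHV, SKI2, HIS4, VPS22, UGT72B3 and AT3G53730. Of the 81 uncalled genes 37 passed at least once. The causes were not tested.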

Other observations

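A cluster of 40 genes shared 1 profile over all 24 arrays. It was noticed in the comparison of day 5 with days 0 to 4, where these genes form a clump with day 5 means near 0.65 (median, range -0.01 to 1.08) and earlier means near 1.81 (range 1.14 to 2.01). Each correlated above 0.9 with the median profile of 43 genes picked from that clump, 27 of them above 0.95, and 16 further genes lay between 0.8 and 0.9. On day 5 their medians were 0.21, 1.55, 1.09 and -0.38 in sets 1 to 4, and on days 0 to 4 the array medians ran from -1.82 (day 0, set 3) to 5.05 (day 0, set 1). Within an array they spread by an SD of 0.42, against 1.33 for all tested genes (medians over arrays). The genes include RR19, a response regulator-like gene, and SBTI1.1, a subtilisin-like protease gene. None of the 40 was called on day 5 or for the difference (limma; 0 had an unadjusted p of the difference under 0.05). The profile was not explained.

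Of the genes called on day 5, 13 had an earlier mean on the other side of 0. The 8 higher ones were AT1G10455, AT1G21530, AT1G26390, AT1G31690, MMP, AT2G22270, AT4G12810 and AT4G14305, with earlier means from -0.17 to -0.01. The 5 lower ones were AT1G75460, CSLB03, AT4G00750, AT4G27590 and ROXY2, with earlier means from 0.00 to 0.26. All 13 lost the day 5 call under at least 1 alternative, and 12 of them when 1 day 5 array was left out (limma adjusted p = 0.0518 to 0.362); AT4G14305 kept it in those.

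Another 1195 genes had day 5 ratios but no value on some earlier day. Their median was 0.33, with 485 above 0 on all 4 arrays and 24 below. Of the tested genes 27.4% were above 0 on all 4 arrays and 33.3% below. Large ratios were fewer among the 1195 genes. A mean of at least 1 was seen in 6.61% and of -1 or less in 1.59%, against 14.2% and 21.6% of tested genes. List members among the 1195 were AMS, a tapetum regulator (0.55 ± 0.55), IAA20 (-0.07 ± 0.12) and the stomatal gene FAMA (-0.83 ± 1.35, SD, n = 4 each).

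Of 171 genes with more than 1 measured probe on day 5, 102 had probes on both sides of 0, with a median gap of 1.49 between probes. Among 10526 unnamed probes measured on day 5, 215 (2.04%) had a mean of at least 2 and 533 (5.06%) of -2 or less, against 1.21% and 6.81% of tested genes. The means of the sets with decapped mRNA in Cy5 and in Cy3 had opposite signs for 1744 genes (16.4%), of which 3 were among the 4142 called. A call needs a day 5 mean far from 0 for its error, and that mean averages both kinds of sets. Few called genes could therefore have opposite signs, and the low count is no check on the dye.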
